A study of Acacia koa with 4 samples.

Results

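Transcripts of the cytoskeleton and the cell cycle were examined in Acacia koa, a Hawaiian tree of the legume family, in seedlings whose stems were manually bent but not wounded and in seedlings left unbent. A transcript was included when the description of its most similar protein named actin, tubulin, kinesin, myosin, microtubules, profilin, formin, villin, a cyclin, cell division or mitosis. Descriptions naming ubiquitin, calmodulin or tetracyclin would have been left out, but 0 transcripts that matched did so. This rule uses descriptions, not measured values, and gave 98 of the 4000 transcripts on the array. They were 16 of the actin subgroup, 23 of the microtubule subgroup and 59 of the cell cycle subgroup. No description matched kinesin, myosin, microtubule, profilin, formin or villin, so the actin and microtubule subgroups consist of the transcripts found by the words actin and tubulin.

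The tested plants were 2 pools labelled Stressed, and they were set against 2 pools labelled Unstressed. Each pool held about 20 seedlings and was measured on 1 single-colour array. The groups shared species, tissue (seedling) and extraction method, and the labels give no genotype, age or time between bending and freezing. Tissue was powdered before extraction, so a value averages over the organs of the seedling, and fewer cells of a type cannot be told apart from less RNA per cell. Photosynthetic markers, represented by 2 transcripts, were bright on all arrays, with intensities from 29096 to 63243.

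Actin filaments carry transport and anchor organelles in plant cells, and they are built from actin with the help of binding and depolymerizing proteins. Microtubules are hollow polymers of alpha- and beta-tubulin that start from complexes containing gamma-tubulin. In growing plant cells they guide the deposition of cellulose, and in dividing cells they form the spindle and the phragmoplast. Progress through the cell cycle is driven by cyclin-dependent kinases bound to cyclins, with D-type cyclins acting mainly at entry and A- and B-type cyclins mainly in S phase and mitosis. In plant stems mechanical bending is known to alter growth and the orientation of cortical microtubules.

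None of the 98 transcripts was called higher or lower in stressed pools, against 38 of the 4000 on the array (0.95%, limma, adjusted p under 0.05). The 0 higher stood against 0.925% of all transcripts, and the 0 lower against 0.025%. The smallest adjusted p among the 98 was 0.72. At an unadjusted p under 0.05 the count was 1 of 98, an actin-binding protein that was higher, against 5.5% of all transcripts. The stressed and unstressed values did not overlap for 22 of 98 transcripts (22.4%), against 31.5% of all transcripts. Of these, 11 were higher in stressed pools, where the background was 12%, and 11 were lower, where it was 19.5%. Among the 22, 3 higher and 1 lower had intensities under 60 on all arrays, near the lowest value of 44.2. Differences on the log2 scale were positive for 46 and negative for 52 of the 98, against 1570 and 2430 of the 4000. They ran from −0.34 to 0.39, with a median of −0.01, against a median of −0.04 over all transcripts. Their median size, regardless of sign, was 0.07, against 0.12 over all transcripts. Leaving out unstressed replicate 2 brought the count at an unadjusted p under 0.05 to 9, or 9.18% of the 98 against 14.8% of all transcripts in that fit, with 4 higher and 5 lower in stressed pools. Without unstressed replicate 2 the median difference was 0.10, and without unstressed replicate 1 it was −0.10.

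A p above the threshold does not show that levels were equal, so the intervals bound what remained possible. For 97 of 98 transcripts, limma's 95% confidence interval of the difference lay inside a 2-fold change in either direction, as it did for 92.1% of all transcripts. For 72 of 98 (73.5%) it lay inside a 1.5-fold change, against 61.8% of all transcripts. These intervals rest on 2 pools in each group and are not adjusted for the number of transcripts. The transcript whose interval reached beyond 2-fold was A302613, a cyclin-like F-box protein.

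**Figure D1:**
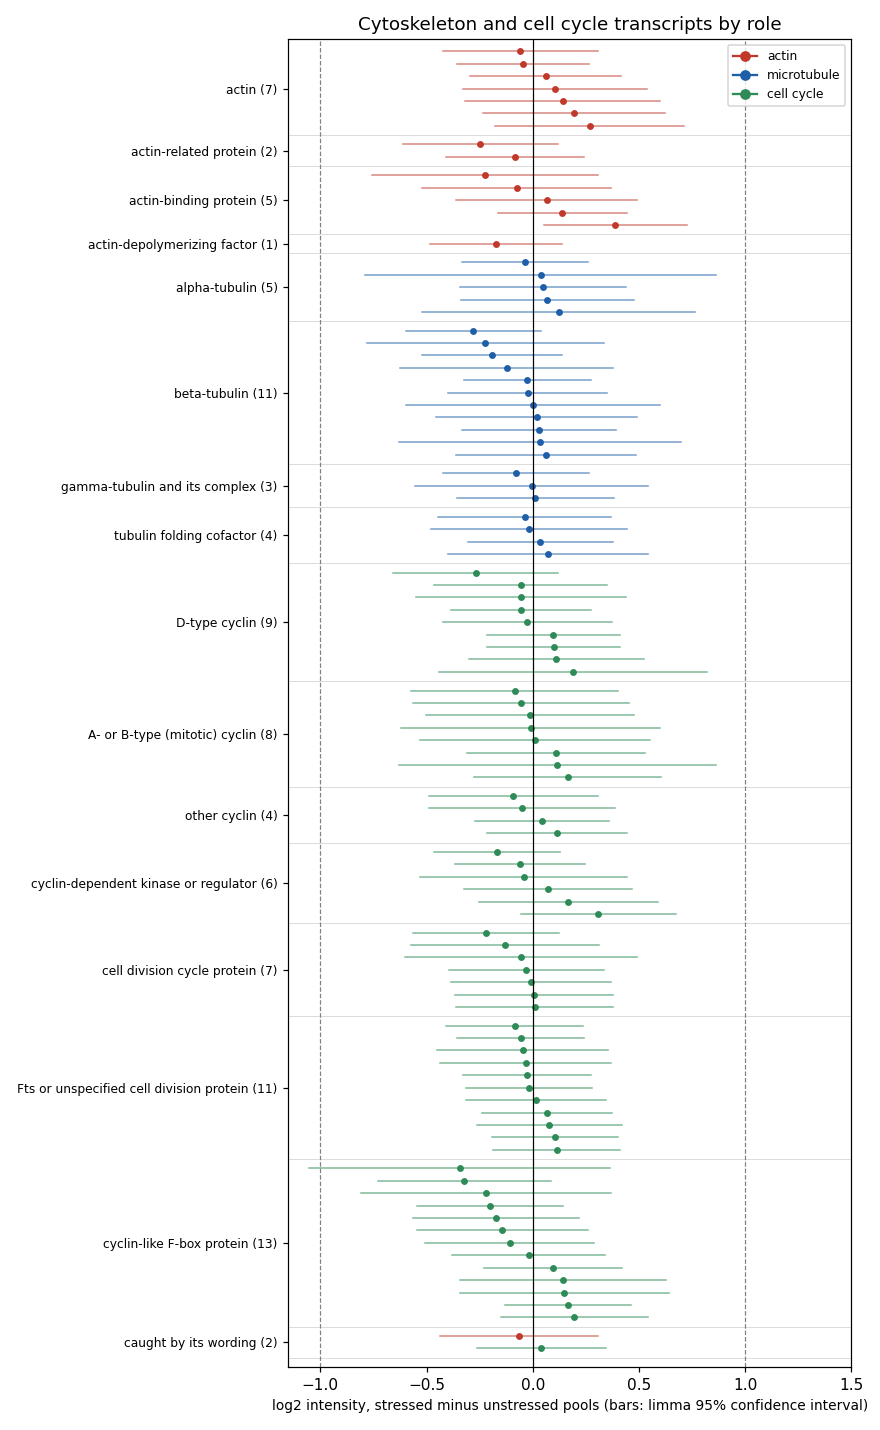
Difference in log2 intensity, stressed minus unstressed pools (points), with limma's 95% confidence interval (bars), for each of the 98 transcripts, grouped by role with the number of transcripts in brackets and coloured by subgroup. Points lie between −0.34 and 0.39, and all intervals but 1 stay inside the dashed lines, which mark a 2-fold change.

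The 7 actins themselves had differences from −0.06 to 0.27, with 5 positive and 2 negative. A14700, described as actin, the subunit of the filament, had intensities of 1847 and 1771 in stressed pools, against 1309 and 1723 in unstressed pools. The stressed values were both above the unstressed ones, but the gap was small beside the spread of the unstressed pools (log2 difference 0.27, 95% confidence interval −0.18 to 0.71, limma adjusted p = 0.99). It was 0.07 without unstressed replicate 1 and 0.47 without unstressed replicate 2. Actin 2 (A14307) had 3841 and 4919 in stressed pools and 3654 and 3947 in unstressed pools. Its groups overlapped, and the difference was 0.19 (−0.23 to 0.62, adjusted p = 0.99). Actin 1 (A4066) had 9294 and 10813 in stressed pools and 8010 and 10326 in unstressed pools, a difference of 0.14 (−0.32 to 0.60). Actin isoform B (A1375) had 17254 and 18397 in stressed pools, which lay inside the unstressed values of 17052 and 20164. The other 3 actins had overlapping groups, from −0.05 to 0.11. Sequences of actin genes are closely alike in plants, so RNA of one may have bound probes of another, and the 7 values are not fully separate measurements.

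Proteins that act on actin filaments did not share a direction. The actin-binding protein A220261 had the largest positive difference of the 98 and the smallest p. Its intensities were 852 and 756 in stressed pools and 594 and 632 in unstressed pools. The groups did not overlap, and the level was 1.31-fold higher in stressed pools (1.04 to 1.65, limma unadjusted p = 0.031, adjusted p = 0.72). A37559, another actin-binding protein, had 2160 and 2274 in stressed pools, above 1992 and 2031 in unstressed pools (difference 0.14, −0.16 to 0.44). The other 3 actin-binding proteins had overlapping groups, with differences from −0.22 to 0.07. The actin-depolymerizing factor A29668, of a class that severs and disassembles filaments, had 1986 and 1838 in stressed pools, below 2179 and 2124 in unstressed pools (difference −0.17, −0.48 to 0.14, adjusted p = 0.99). Actin-related proteins resemble actin and include parts of the machinery that starts new branches and of chromatin remodelling complexes. Of the 2, A19912 had 3985 and 3374 in stressed pools, below 4516 and 4189 in unstressed pools (difference −0.25, −0.61 to 0.12), and A11362 was at −0.08 with overlapping groups. Over the 16 transcripts of the actin subgroup, which include a hydrolase caught only by the word acting, 8 were positive and 8 negative, with a median of 0.01. Groups did not overlap for 3 higher and 2 lower in stressed pools (31.2%), against 31.5% of all transcripts.

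The microtubule subgroup had the narrowest spread of differences, from −0.28 to 0.12, with a median of 0.00. In it 12 transcripts were positive and 11 negative, and 3 of 23 had groups that did not overlap, all lower in stressed pools. This was 13%, against 31.5% of all transcripts, or 19.5% for those lower. The alpha-tubulins, 5 in number, had differences from −0.03 to 0.12. A375, an alpha-tubulin, had 41367 and 41699 in stressed pools, just below 42223 and 42882 in unstressed pools. This was a difference of −0.03 with the tightest interval of the 5 (−0.33 to 0.26), although fold differences of very bright transcripts may be understated near the top of the scale, where the highest intensity was 64925. A7928, also described as an alpha chain, had 1109 and 1551 in stressed pools and 1015 and 1432 in unstressed pools. The pools within each group differed far more than the groups did, at a difference of 0.12 between groups (−0.52 to 0.76). The same was seen for tubulin A (A5927), with 6794 and 9592 in stressed pools and 5981 and 10356 in unstressed pools.

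Among the 11 beta-tubulins, which pair with alpha-tubulin in the polymer, 6 were negative and 5 positive, with a median of −0.02. A11832 had 8827 and 8804 in stressed pools, against 11236 and 10185 in unstressed pools. Its groups did not overlap, and the level was 1.21-fold lower in stressed pools (log2 difference −0.28, −0.60 to 0.04, limma adjusted p = 0.99). A14943, with the same description, had 16040 and 16700 in stressed pools, below 19794 and 17648 in unstressed pools (difference −0.19, −0.52 to 0.14). The remaining 3 beta chains with this description, A2557, A4659 and A348608, were at −0.02, 0.02 and 0.00, so the direction was not common to them. Beta-tubulin 6 (A138400) had 1700 and 1598 in stressed pools and 2343 and 1579 in unstressed pools, and its difference of −0.22 rested on unstressed replicate 1, without which it was 0.06. Beta-tubulin 3 (A1894) had 10941 and 13225 in stressed pools and 11359 and 15091 in unstressed pools (difference −0.12, −0.62 to 0.38). The other 4 beta-tubulins had overlapping groups, from −0.03 to 0.06.

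Gamma-tubulin and the proteins of its complex start new microtubules. The complex-associated protein A33053 had 2556 and 2834 in stressed pools and 2696 and 3001 in unstressed pools, with overlapping groups (difference −0.08, −0.42 to 0.26). Gamma-tubulin itself (A23729) was at 0.01 and a further complex component (A43724) at −0.01. The 4 cofactors that fold tubulin into its assembly-ready form ranged from −0.04 to 0.07. In none of these 7 transcripts were the groups separated, against 31.5% of all transcripts.

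**Figure D2:**
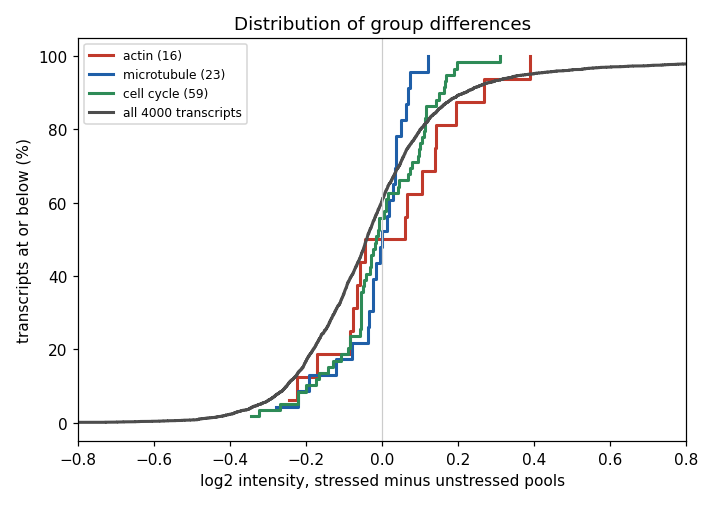
Cumulative share of transcripts (%) at or below each difference in log2 intensity, stressed minus unstressed pools, for the actin, microtubule and cell cycle subgroups and all 4000 transcripts, whose tails beyond ±0.8 are not drawn. The microtubule line is the steepest and crosses 50% at 0.00, and the subgroup lines reach 100% by 0.39, while the line for all transcripts goes on to 4.17.

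D-type cyclins, which couple growth and hormone signals to the start of the cycle, numbered 9, with 4 positive and 5 negative and a range from −0.27 to 0.19. Groups did not overlap for 2 higher and 1 lower in stressed pools (33.3%), against 31.5% of all transcripts. Cyclin D3 (A75494) had 145 and 132 in stressed pools, below 183 and 152 in unstressed pools. This was 1.21-fold lower in stressed pools (log2 difference −0.27, −0.66 to 0.12, limma adjusted p = 0.99). Without unstressed replicate 1 the difference was −0.13, and without unstressed replicate 2 it was −0.41. The other cyclin D3 transcripts, A14717 and A192714, were at −0.03 and −0.06, and cyclin D3-1 (A60528) was at 0.10 with 452 and 451 in stressed pools, above 404 and 441 in unstressed pools. The 5 transcripts described as cyclin D ranged from −0.06 to 0.19, and of these A86829 alone had separated groups (difference 0.10). Cyclins T1, L1 and L2, whose relatives in animals act in transcription and splicing, and an unspecified cyclin together ranged from −0.09 to 0.11.

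The 8 A- and B-type cyclins had 4 positive and 4 negative differences, from −0.08 to 0.16. Groups did not overlap for 0 of 8, against 31.5% of all transcripts. In all 8 unstressed replicate 2 was brighter than unstressed replicate 1, by 1.25-fold to 1.65-fold, with a median of 1.40-fold. Unstressed replicate 2 was the brighter one in 50.7% of all transcripts, at a median ratio of 1.00. The order was not particular to these cyclins. It held for all 7 actins, 5 alpha-tubulins and 7 cell division cycle proteins, and for 8 of 9 D-type cyclins. Among cyclin-dependent kinases and regulators it held for 3 of 6, and among cyclin-like F-box proteins for 6 of 13. In 7 of the 8 both stressed values lay between the unstressed values, as they did for 22.9% of all transcripts. Mitotic cyclin B1-1 (A41657), of a class that triggers mitosis, had 2603 and 2411 in stressed pools and 2266 and 3115 in unstressed pools. The A2-type cyclin A22562 had 1249 and 1312 in stressed pools and 1031 and 1610 in unstressed pools. For A35603, a mitotic cyclin and the exception, 1 stressed value lay just above the unstressed range, with 2246 and 2516 in stressed pools and 1970 and 2460 in unstressed pools. These cyclins were singled out after their values were seen, and the comparison over all transcripts is a description with no test.

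Cyclin-dependent kinases and their regulators held the largest positive difference of the cell cycle subgroup. Of the 6, groups did not overlap for 1 higher and 1 lower in stressed pools (33.3%), against 31.5% of all transcripts. A9589 is described only as Cyclin-dependent kinases, words that also open the longer description of the regulatory subunit A29340. The description therefore does not tell a kinase from a regulator. A9589 had 7447 and 7567 in stressed pools, above 5537 and 6625 in unstressed pools. The level was 1.24-fold higher (0.96 to 1.60, limma adjusted p = 0.99). On the log2 scale the difference of 0.31 became 0.18 without unstressed replicate 1. The cyclin-dependent kinase inhibitors, brakes of the cycle, were both negative. A63946 had 936 and 938 in stressed pools, below 1060 and 1042 in unstressed pools (difference −0.17, −0.46 to 0.13), and A27405 was at −0.06 with overlapping groups. Cell division protein kinase 7 (A25535), whose relatives activate other cyclin-dependent kinases and act in transcription, was at 0.17, the regulatory subunit A29340 at 0.07 and the unspecified kinase A272165 at −0.04, each with overlapping groups.

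Among 7 cell division cycle proteins the differences ran from −0.22 to 0.01. Cell division control 20 (A270395), which in yeast and animals activates the complex that tags mitotic cyclins for breakdown, had 255 and 264 in stressed pools. Its unstressed values were 281 and 324, both higher (difference −0.22, −0.56 to 0.12, adjusted p = 0.99). The CDC48 transcripts encode an ATPase that extracts proteins from complexes and membranes. A3614 had 22916 and 23540 in stressed pools, inside the unstressed values of 21036 and 25328, and A3019 had 12770 and 14433 in stressed pools and 12659 and 14728 in unstressed pools. Their differences were 0.01 and −0.01, with intervals of −0.36 to 0.38 and −0.38 to 0.37. The other 4 had overlapping groups, from −0.13 to 0.01.

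**Figure D3:**
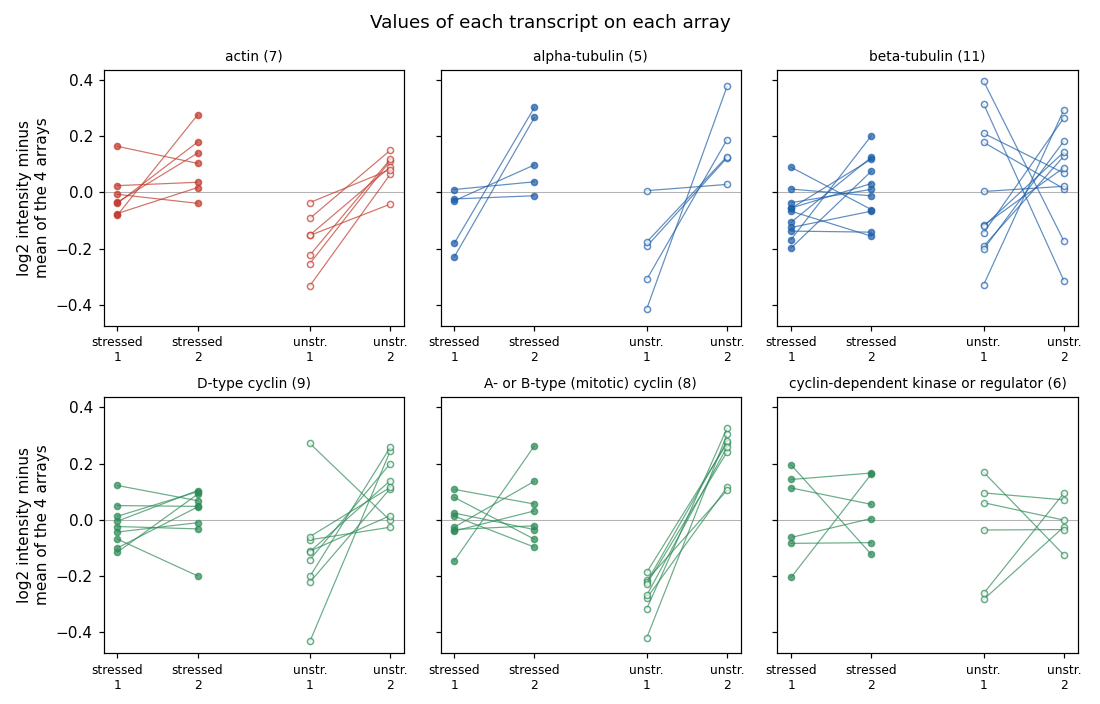
Log2 intensity of each transcript minus its mean over the 4 arrays (vertical axis), with a line joining the pools of 1 group, for 6 roles with the number of transcripts in brackets. Filled points are stressed pools and open points unstressed pools (unstr.), and in the panel of A- and B-type cyclins all 8 lines rise between the unstressed pools, with 7 transcripts holding both stressed values between them. The lines of all 7 actins and all 5 alpha-tubulins rise between the unstressed pools as well.

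Fts proteins and unspecified cell division proteins were 11 in number, and the Fts names come from bacterial division genes. In plants FtsZ forms the ring that divides chloroplasts, FtsH is a protease of chloroplast and mitochondrial membranes, and FtsY is a receptor that delivers proteins to the thylakoid membrane. FtsZ (A12512) had 2716 and 2967 in stressed pools and 2917 and 3110 in unstressed pools (difference −0.09, −0.41 to 0.24), and FtsH (A191) had 7604 and 7472 in stressed pools and 7559 and 7698 in unstressed pools (difference −0.02). FtsY (A9635) was at 0.01. Of the 11, 6 had intensities under 60 on all arrays, close to the lowest value on the arrays of 44.2. Below this level a fall could hardly have been measured. Of the 11, groups did not overlap for 3 higher and 1 lower in stressed pools (36.4%), against 31.5% of all transcripts. All of these were under 60 on all arrays. With the beta-tubulin A3746 and a ribosome recycling factor caught by the letters cyclin, 8 of the 98 transcripts were this dim, against 3.8% of all transcripts. For 6 of the 8 the similar protein carried an identifier with the prefix YP, which RefSeq uses mainly for genomes of bacteria, viruses and organelles, and all 6 members with that prefix were among the 8. Without these 8 the median difference of the remaining 90 was −0.01. Groups of the 90 did not overlap for 8 higher and 10 lower in stressed pools (20%), against 31.5% of all transcripts.

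Cyclin-like F-box proteins made up 13 of the 59 cell cycle transcripts. The term names a protein domain of ubiquitin ligase subunits, which select proteins for breakdown, and not a cyclin. They held the largest negative differences, with 5 positive and 8 negative and a median of −0.11. Over the whole array 2430 of 4000 differences were negative, with a median of −0.04. A302613 had 657 and 576 in stressed pools and 1017 and 601 in unstressed pools. Its difference of −0.34 (−1.05 to 0.36) rested on unstressed replicate 1, and without it was 0.04. A322182 had 451 and 458 in stressed pools, below 640 and 506 in unstressed pools, which was 1.25-fold lower (log2 difference −0.32, −0.73 to 0.08, limma adjusted p = 0.99). The difference was −0.15 without unstressed replicate 1 and −0.49 without unstressed replicate 2. A240471 had 435 and 379 in stressed pools, below 454 and 480 in unstressed pools (difference −0.20, −0.55 to 0.14). In the other direction A31978, which also names a Tubby domain, had 2488 and 2872 in stressed pools, above 2394 and 2275 in unstressed pools (difference 0.20, −0.15 to 0.54). The other 9 ran from −0.22 to 0.17. The highest of them, A79463, had 367 and 375 in stressed pools, above 329 and 333 in unstressed pools. Over the 13, groups did not overlap for 2 higher and 2 lower in stressed pools (30.8%), against 31.5% of all transcripts. Without the F-box proteins and the ribosome recycling factor the cell cycle subgroup held 45 transcripts, with 20 positive and 25 negative and a median of −0.01, against −0.02 for all 59.

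The larger of the 2 spreads between pools of 1 group exceeded the difference between group means for 83 of 98 transcripts (84.7%), against 79.8% of all transcripts. Taking the larger spread and comparing it with a difference of means favours this order by construction. Most of the spread lay in the unstressed pools. Their log2 values differed by a median of 0.26 regardless of sign, while those of the stressed pools differed by 0.12. Over all transcripts these medians were 0.21 in unstressed pools and 0.14 in stressed pools. Unstressed replicate 2 was brighter than unstressed replicate 1 for 75 of 98 transcripts (76.5%), including 19 of 23 in the microtubule, 12 of 16 in the actin and 44 of 59 in the cell cycle subgroup. Transcripts described as ribosomal proteins had the same order of unstressed pools in 36 of 41, with a median ratio of 1.20. Their list left out descriptions naming a kinase, chloroplasts or mitochondria. Descriptions with cellulose synthase, laccase, fasciclin or irregular xylem, taken as xylem markers, had this order in 16 of 44. Those with root or nodulin, taken as root markers, had it in 2 of 7. These lists were drawn by wording, and whether their transcripts are particular to an organ was not tested. The part of such markers in the spread was not tested.

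**Figure D4:**
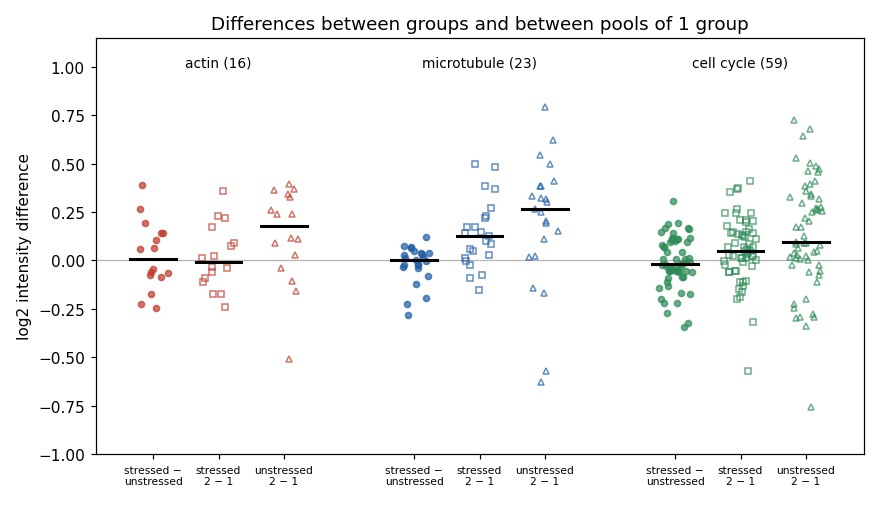
Log2 intensity differences of each transcript (points) with their medians (bars), by subgroup: stressed minus unstressed pools (filled circles), stressed replicate 2 minus 1 (squares) and unstressed replicate 2 minus 1 (triangles). Group differences have medians of 0.01, 0.00 and −0.02 in the actin, microtubule and cell cycle subgroups, while the unstressed pools differ by medians of 0.18, 0.26 and 0.09.

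Related genes outside these descriptions gave 0 called transcripts as well. Among other cytoskeletal proteins, 5 transcripts described katanin subunits, which sever microtubules. Their differences ran from −0.10 to 0.12, and their groups overlapped, while groups did not overlap for 31.5% of all transcripts. A list for the cell cycle and DNA replication held 11 transcripts, from −0.23 to 0.03, of which 2 were positive and 9 negative. Of the 11, 3 had intensities under 60 on all arrays, and both positive ones were among these. Over the whole array 2430 of 4000 differences were negative. Topoisomerase I (A172549), which relaxes DNA ahead of replication and transcription, had 918 and 968 in stressed pools, below 1102 and 1103 in unstressed pools (difference −0.23, −0.53 to 0.08, limma adjusted p = 0.99). The homologues of cdc2 kinase, A9633 and A38063, were at −0.05 and −0.01. The large subunit of ribonucleotide reductase (A16039), which makes the building blocks of DNA, had 6270 and 6535 in stressed pools, inside the unstressed values of 5125 and 8022. DNA topoisomerase 2 (A33258) had 1491 and 1639 in stressed pools, also inside the unstressed values of 1290 and 1938. Unstressed replicate 2 was the brighter unstressed pool for both, as for 9 of the 11 on this list. It was also the brighter one for 5 of 6 related cytoskeletal transcripts, against 50.7% of all transcripts.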

How the data were processed

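Each of the 2 stressed and 2 unstressed pools was hybridised to 1 single-colour array (Cy3). The authors deposited 1 linear-scale intensity for each transcript and array, computed by RMA per the submitters' processing notes. RMA removes background, brings the arrays to a common distribution and combines a transcript's probes, 18 at most per the file headers. The RMA version and settings are not stated there. A shift shared by most transcripts would have been largely removed by it. Median intensities of the deposited arrays were 991 and 1018 in stressed pools and 981 and 1010 in unstressed pools.

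The log2 intensities of all 4000 transcripts were fitted with limma 3.58.1 (R 4.3.3; lmFit, eBayes), with a single term for the group, which left 2 residual degrees of freedom. Benjamini-Hochberg adjustment ran over the whole array, at a threshold of 0.05, with no filter and no offset. The number of arrays limits the precision, since 2 against 2 arrays allow no two-sided permutation p below 0.333. P-values weigh a difference against the spread between these pools. In the fit that spread is drawn towards a value shared by all transcripts, with 2.93 prior degrees of freedom.

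The members, lists and tests were chosen with earlier results of these data known. Described with their values are called transcripts, the 6 with the smallest p and the 2 brightest of each subgroup, and the 3 largest differences in each direction, 24 in all. Others are named to complete a role or were picked after their values were seen. Of the 98 transcripts, 50 share a description with another. Sequences of koa were not used here. Alternatives left out single pools or dim transcripts, added a replicate term, an offset of 50 or a variance trend, rescaled the arrays, or took the deposited table of the whole series, which held identical intensities.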

Additional observations from a re-analysis of the deposited data

How the results depend on the processing

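The count of called transcripts among the 98 was 0 under each alternative run, with the smallest adjusted p between 0.22 and 1.00. Leaving out single pools gave 0 to 9 transcripts at an unadjusted p under 0.05 and 43 to 79 whose groups did not overlap, where a group of 1 pool separates more easily by construction. In those fits 3.43% to 14.8% of all transcripts had an unadjusted p under 0.05, and 55.8% to 77.2% did not overlap. It gave 8 to 27 called transcripts over the whole array, and medians of −0.10 to 0.10 for the 98, −0.063 to 0.12 for actin, −0.11 to 0.13 for microtubule and −0.056 to 0.10 for cell cycle transcripts. In these fits differences changed sign for A1375 (−0.18 to 0.063), A138400 (−0.51 to 0.062), A1894 (−0.33 to 0.083), A3019 (−0.12 to 0.10), A302613 (−0.72 to 0.036), A3614 (−0.13 to 0.14), A4066 (−0.043 to 0.32) and A7928 (−0.13 to 0.37). Of the other transcripts chosen by the rule, leaving out 1 pool moved the log2 difference by more than 1.5 times for A14307 (0.016 to 0.37), A14700 (0.07 to 0.47), A14943 (−0.27 to −0.11), A19912 (−0.37 to −0.13), A240471 (−0.30 to −0.10), A270395 (−0.32 to −0.12), A31978 (0.092 to 0.30), A322182 (−0.49 to −0.15), A33053 (−0.16 to −0.0026), A75494 (−0.41 to −0.13) and A9589 (0.18 to 0.44). A3614 also changed sign with array medians subtracted (−0.0033). With that rescaling groups did not overlap for 27 of the 98 transcripts (27.6%), against 32.5% of all transcripts. With the intensity trend, 0 of the 98 transcripts had an unadjusted p under 0.05, and without the dimmest 25% of transcripts, which leaves 75 of the 98, groups did not overlap for 14, or 18.7% against 31.7% of all transcripts. The replicate numbers are shared by the groups, but nothing in the labels pairs the pools. Deviations of the same-numbered pools from their group means correlated over transcripts at r = 0.51, and 54 of 98 transcripts were brighter in replicate 2 of both groups, against 34.8% of all transcripts. With the replicate number as a block, 139 transcripts of the array and 0 of the 98 were called, and 4 of the 98 (4.08%) had an unadjusted p under 0.05, against 11.6% of all transcripts. Except where a value itself shows it, the cause of these shifts was not tested. The number of pools, 2 in each group, limits the precision, and differences of transcripts near the background may be understated.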

Other observations

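Dim transcripts like those among the Fts proteins were found over the whole array. Of 168 transcripts whose similar protein carried a YP identifier, 129 had intensities under 60 on all 4 arrays, against 23 of the 3832 other transcripts. These counts describe the deposited intensities, and no detection call accompanied them.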
